A study of Macaca mulatta with 16 samples.

Results

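The comparison described here is that of the orbital layer with the global layer of macaque extraocular muscle, the striated muscle that moves the eye. Its members are the arrays whose titles name one of these layers, 8 of the 16 arrays of the series, and they were analysed over all genes with a measurable signal. Each layer was measured on 2 arrays of the human array type U133A and on 2 arrays of the complementary type U133B. The study also holds arrays of whole rectus muscles. They were used here to set the scale and the low-signal limits of each table, and in an alternative fit of all 4 groups.

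Both groups came from adult rhesus macaques without a stated treatment, and they differ in the layer alone as far as the labels say. RNA of both was amplified with T7 polymerase before labelling, and laser microdissection is named for some of these arrays. The labels do not say which arrays share an animal or whether animals were pooled, so the spread between arrays may be technical and p-values may be too small. The precision of every value is limited by the number of arrays, 2 per layer and array type. On U133A, orbital array 1 has a title naming the orbital layer and a source name naming the global layer; the title was followed. On U133B, the source name of global array 1 speaks of layers without naming one, and again the title was followed.

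Extraocular muscles are built of an outer layer that faces the bony orbit and an inner layer that faces the globe. Fibres of the orbital layer are thin, rich in mitochondria and capillaries, and are known to keep embryonic and cardiac myosin isoforms into adult life. The global layer runs the full length of the muscle to the tendon on the eye and holds, beside slow and multiply innervated fibres, fast-twitch fibres like those of limb muscle.

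Values are intensities in arbitrary units after scaling each array to a common trimmed mean. Differences are log2 intensities, orbital minus global, with their standard error (SE). Values are given in the order array 1 and array 2 of each layer. A gene is said to have risen or fallen only where a limma comparison gave an adjusted p under 0.05. As a measure without a model, a probe set is called apart where all 4 pairings of an orbital with a global array differed at least 1.5-fold in one direction.

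The marker genes placed the arrays as their titles do; they were chosen with results known, and this is a description. MYH3, the embryonic myosin heavy chain, stood at 85288 and 78359.9 (orbital) against 3086 and 11010.0 (global) on U133A. ACTN3, the alpha-actinin of fast fibres, stood at 338 and 679 (orbital) against 11435 and 36323 (global), and CA3, a muscle carbonic anhydrase, at 2518 and 555 (orbital) against 28941 and 45623 (global). Orbital array 1, whose source name contradicts its title, lay on the same side of both global arrays as orbital array 2 for all 5 markers. Without this array the differences were 3.75 for MYH3, 2.31 for MYH6, 2.97 for CSRP3, −4.91 for ACTN3 and −6.03 for CA3, and all 5 passed in limma; over all probe sets 75 passed without it, against 39 with it. General muscle fibre genes were bright in both layers, with ACTA1, skeletal actin, at 43669.9 and 33946 against 34393 and 55686 (orbital against global) and CKM, muscle creatine kinase, at 91659 and 76118 against 103401 and 112724.

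Across all genes with a signal, the layers were alike in most of their transcripts. Of 9532 probe sets kept on U133A, 84.0% differed by less than 1.5-fold between the layer means, and 3.80% (362) by at least 2-fold. Of these 362, 232 were higher in the orbital layer and 130 lower. From the 5th to the 95th percentile, differences ran from −0.70 to 0.75 around a median of −0.04. On U133B, 76.1% of 9510 kept probe sets differed by less than 1.5-fold and 7.21% (686) by at least 2-fold, with 351 higher and 335 lower. There, the same percentiles were −0.89 and 0.89 around a median of 0.03. The wider range on U133B went with a larger standard error, at a median of 0.38 against 0.30 on U133A.

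In limma, 27 probe sets rose in the orbital layer on U133A (0.283% of those kept) and 12 fell (0.126%). On U133B none rose and 2 fell (0.021%), while 738 had an unadjusted p under 0.05. Many more probe sets were apart in all pairings. On U133A, 203 (2.13%) were apart and higher in the orbital layer and 164 (1.72%) apart and lower. On U133B the counts were 262 (2.75%) and 244 (2.57%). Every called probe set was also apart. Counted by gene, with the brightest probe set standing for the gene, 2.09% of 6364 genes were apart and higher and 1.98% apart and lower on U133A. Of 5555 genes on U133B, 2.61% were apart and higher and 2.9% apart and lower. These shares are the background against which counts within gene groups are read below.

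Kept probe sets were divided into 5 equal classes by brightness. On U133A the brightest class held 15 of the 27 that rose, and 5.09% of it was apart in either direction. On U133B the dimmest class held the largest share apart, 7.83%, and none of its members passed in limma. The plot of differences against brightness shows these clouds with the called probe sets ringed.

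**Figure D1:**
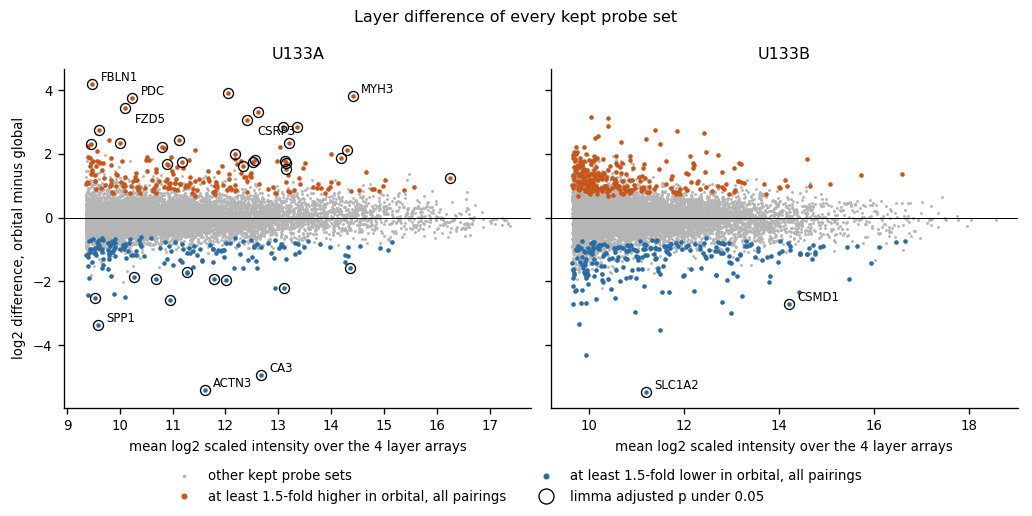
Log2 difference (orbital minus global, vertical axis) of every kept probe set against its mean log2 scaled intensity over the 4 layer arrays (horizontal axis), for U133A (left, 9532 probe sets) and U133B (right, 9510). Orange and blue points were at least 1.5-fold higher or lower in all 4 pairings, and rings mark the 39 and 2 probe sets past the limma threshold; ACTN3 at −5.41 and SLC1A2 at −5.48 lie lowest.

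Single pairs of arrays show how close the layers lie to the spread within a layer. On U133A the 2 orbital arrays were the closest pair, with 16.7% of kept probe sets at least 1.5-fold apart and a correlation of 0.958 across probe sets. The 2 global arrays were farther from each other, at 26.9% and 0.926. Orbital array 2 and global array 2 differed in only 20.7% of probe sets, fewer than the 2 global arrays did. The widest pair was orbital array 2 with global array 1, at 33.8%. Global array 1 was thus the array farthest from the others on U133A, and it took part in the 3 widest pairs.

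On U133B the pairs were more even. The 2 orbital arrays differed at least 1.5-fold in 29.9% of probe sets and the 2 global arrays in 33.0%, while the 4 pairs across layers ran from 33.5% to 38.6%. Correlations across probe sets were 0.877 and 0.878 within the layers and 0.844 to 0.877 between them. These correlations are across genes of the same arrays and carry no test. By the 1.5-fold share, all 4 pairs across the layers were wider on U133B than both pairs within a layer, unlike on U133A.

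**Figure D2:**
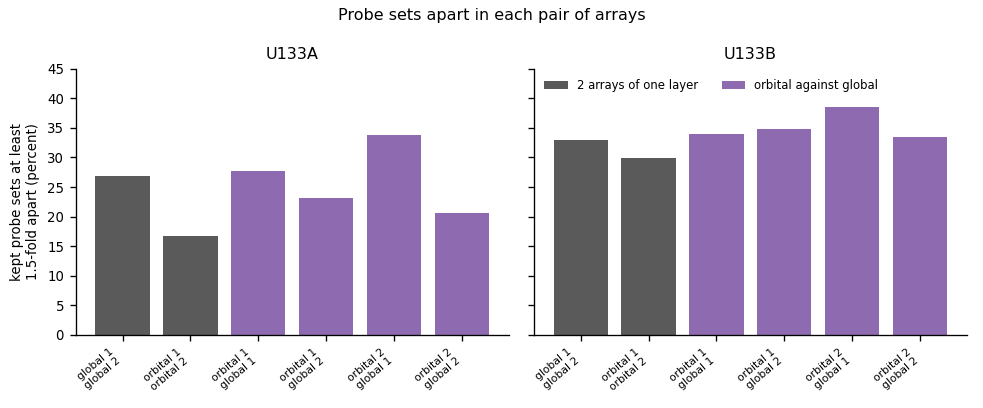
Percent of kept probe sets at least 1.5-fold apart (vertical axis, from 0) in each of the 6 pairs of layer arrays of U133A and U133B; grey bars are 2 arrays of one layer, purple bars an orbital with a global array. On U133A the 2 global arrays (26.9%) lie above 2 of the 4 orbital-to-global pairs, and on U133B all pairs lie between 29.9% and 38.6%.

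Muscle genes that rose in the orbital layer included contractile isoforms known from embryonic and cardiac muscle. MYH6, the alpha-cardiac myosin heavy chain, stood at 37204 and 48159.8 (orbital) against 9212 and 10283 (global). MYL10, a regulatory myosin light chain, stood at 26792 and 20371 against 3125 and 3462 on its brighter probe set and at 2192 and 1948 against 632 and 979.6 on its dimmer one, and both pairs of layers were apart. MYL4, the light chain of atrial and embryonic muscle, had 4 kept probe sets. Of these, 3 were apart at 1.80, 1.73 and 1.41, of which the first 2 passed, and the dimmest differed by 0.34 ± 0.28. SLN, sarcolipin, an inhibitor of the calcium pump of the sarcoplasmic reticulum, stood at 39461 and 32232 against 9126 and 10639. At the Z-disc, CSRP3, the muscle LIM protein, stood at 17012 and 14714 against 1451 and 2445, and PDLIM4, a PDZ and LIM domain protein that binds alpha-actinin, at 3643 and 4115 against 975 and 701. The layers did not overlap on the called probe sets of these genes, as holds for every called probe set.

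FBLN1, fibulin-1, a glycoprotein of the extracellular matrix, had the largest rise on U133A by log2 difference, 4.19 ± 0.35 (adjusted p = 0.0064 in limma). It stood at 3229 and 2857 (orbital) against 57.6 and 190.2 (global), of which the first global value lies under the floor of 146, so that the size of the difference depends on that floor. With the floor at the 40th percentile the difference was 2.82, and without the low-signal filter it no longer passed (adjusted p = 0.235). The other kept probe set of FBLN1 did not separate the layers, at 796 and 799.6 against 926 and 660.3 (0.03 ± 0.34). The remaining 3 FBLN1 probe sets were below the filter.

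IGFBP3, which binds insulin-like growth factors in the extracellular space, stood at 4295 and 4179.7 (orbital) against 1212 and 1332 (global), a difference of 1.74 ± 0.25 (adjusted p = 0.0381 in limma). RCAN1, a regulator of the phosphatase calcineurin, stood at 17988 and 15163 against 4645 and 4991 (1.78 ± 0.23, adjusted p = 0.0306). The arrays of a layer lay close together in both genes and far from those of the other layer. The dimmer RCAN1 probe set differed by 0.57 ± 0.38 with overlapping layers.

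GRIA3, a subunit of AMPA-type glutamate receptors, was measured by 3 kept probe sets over the 2 array types. One on U133A passed, at 1650.3 and 1472 against 355 and 278 (2.31 ± 0.35, adjusted p = 0.0482 in limma). The one on U133B stood at 6001 and 5675 against 1971 and 1505 (1.76 ± 0.30) and was apart in all pairings. The dimmer one on U133A differed by 1.04 ± 0.40, higher on both orbital arrays. All 3 thus lay on the same side. The call of GRIA3 was kept in 6 of the 11 alternatives that held its probe set, and was lost, among others, with quantile normalization (adjusted p = 0.0609 in limma).

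STK39, a kinase that acts on cation-chloride cotransporters, stood at 15019 and 15539.6 (orbital) against 5366 and 5265 (global) (1.52 ± 0.22, adjusted p = 0.0417 in limma). POLA1, the catalytic subunit of DNA polymerase alpha, stood at 3715 and 3132 against 1090.3 and 1051 (1.67 ± 0.25, adjusted p = 0.0473). Both were near the threshold. Each call was kept in 8 of the 14 alternatives and was lost, among others, without orbital array 1. Over the alternatives the differences ran from 1.34 to 1.55 for STK39 and from 1.44 to 1.80 for POLA1. LRTM1, a leucine-rich repeat protein of the membrane, stood at 6976 and 3827 against 1144 and 800.4 on a probe set that passed (2.43 ± 0.35) and at 6912 and 5318 against 2824 and 1813 on one that did not (1.42 ± 0.30). Both LRTM1 probe sets were apart.

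HDC, histidine decarboxylase, makes histamine and is known from mast cells and basophils. It stood at 8900.1 and 9189.9 (orbital) against 2619 and 3279 (global) (1.63 ± 0.25, adjusted p = 0.0473 in limma). Its call was kept in 10 of the 14 alternatives. CPA3, the carboxypeptidase of mast cell granules, stood at 1293 and 1357 against 422 and 308 (1.88 ± 0.36) and was apart without passing. The other mast cell genes of the immune list did not follow: KIT stood at 1337 and 1356 against 2174 and 1308, and TPSAB1, mast cell tryptase, at 108 and 60.6 against 417 and 514, below the filter and higher on the global arrays. Over all 11963 named genes measured on U133A, kept or not, 14.8% were higher on both orbital than on both global arrays and 24.5% lower. Counts for markers of other cells on U133A are read against these shares. For U133B no such share over all measured genes was computed. Of its 9510 kept probe sets, 1978 were higher on both orbital arrays and 1695 lower. Of 34 immune genes measured on U133A, 8 were higher on both orbital arrays, 5 lower and 21 overlapped. Their summed intensity was between 58385 and 62070.4 on the orbital arrays and between 56188 and 63856 on the global arrays, so that these ranges overlap too; the 4 measured on U133B summed to between 3707 and 4864 on the orbital arrays and between 2340.1 and 3666 on the global arrays. In bulk RNA, fewer cells of a type and less RNA per cell cannot be told apart, here and in every result below.

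Further genes that rose were PDC, FZD5, NDP, ALDH1A1, ST6GALNAC5 and RETREG1. PDC, phosducin, a binding partner of G-protein beta-gamma subunits known from photoreceptors, stood at 5383 and 3601 (orbital) against 311 and 349 (global). Of 38 measured genes of the eye and lacrimal gland, 32 were below the filter and 13 were below the floor on all 4 arrays. Among the latter were the photoreceptor genes GNAT1, at 26.5 and 16.6 against 43.6 and 51.1, and PDE6B, at 69.2 and 32.3 against 61.8 and 61.8. The summed intensity of that list was between 15720.0 and 17774 on the orbital arrays and between 13764 and 18877 on the global arrays, which overlaps. RETREG1, which marks endoplasmic reticulum for autophagy, rose on both of its kept probe sets, at 21168 and 21285 against 3753 and 4637 and at 9361 and 9064 against 1942 and 2791. ST6GALNAC5, a sialyltransferase, stood at 1894 and 2119.9 against 354 and 254 on U133A and at 875 and 942 against 1039.7 and 551 on U133B, where the layers overlapped.

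**Figure D3:**
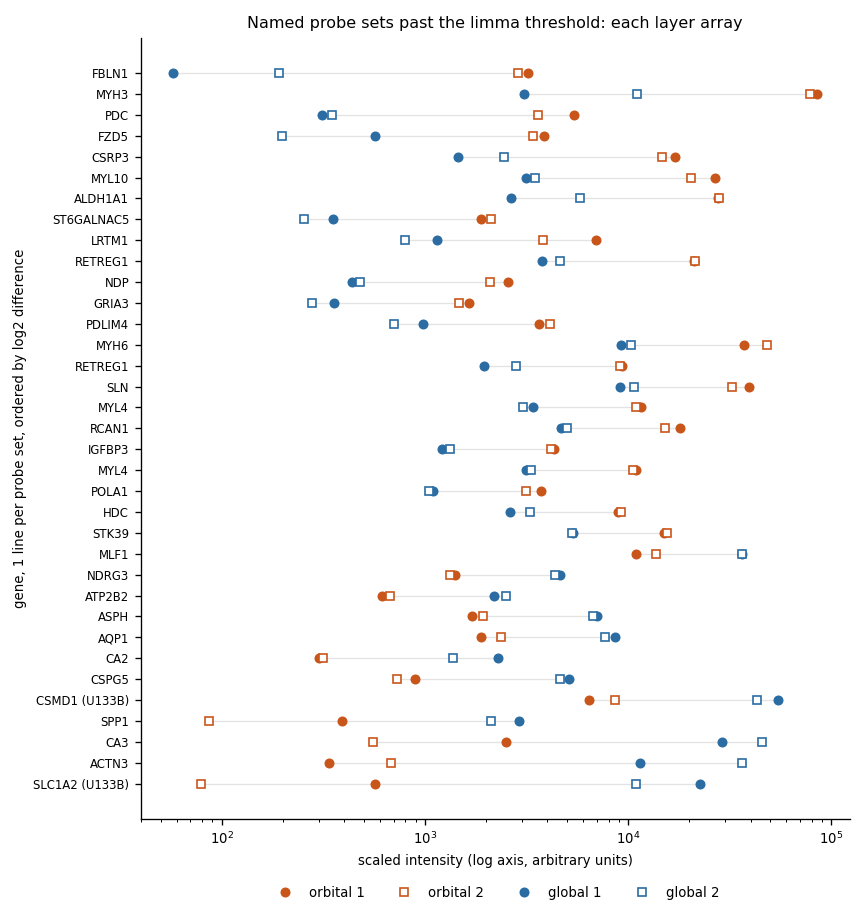
Scaled intensity (logarithmic horizontal axis) on each layer array for the 35 named probe sets past the limma threshold, ordered by log2 difference from FBLN1 (4.19) at the top to SLC1A2 (−5.48) at the bottom; circles are array 1 and open squares array 2 of a layer, orange for orbital and blue for global. In each line the orange and the blue symbols do not overlap, and the lowest values (FBLN1, SPP1, SLC1A2) lie at or below the floor of their table.

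Genes that fell in the orbital layer include transporters and enzymes of ion, water and acid-base handling. AQP1, a water channel of capillary endothelium and red cells, stood at 1879 and 2378 (orbital) against 8621 and 7677 (global) on its brighter probe set and at 966 and 984 against 1397 and 1613 on its dimmer one, where the layers did not overlap without passing (−0.62 ± 0.27). CA2, a cytosolic carbonic anhydrase, stood at 301 and 314 against 2289 and 1378. Its call was kept in 5 of the 11 alternatives that held its probe set and lost with quantile normalization (adjusted p = 0.0681 in limma), with the floor at the 40th percentile (0.0833), with no filter (0.417), with a filter on the arithmetic mean (0.0682), without a variance trend (0.0645) and with all 4 groups in one fit (0.136). ATP2B2, which pumps calcium out of the cell, stood at 618 and 669 against 2196 and 2515 on U133A and at 125 and 218 against 6002 and 3181 on U133B, where both orbital values lie below the floor. The call of ATP2B2 was kept in 9 of the 13 alternatives that held its U133A probe set and was lost, among others, without global array 2. SLC1A2, a glutamate transporter known from astrocytes, stood at 565 and 78.7 against 22491 and 10977 on U133B and at 470.3 and 446 against 3795 and 1787 on U133A. On U133B its call was kept in 9 of the 14 alternatives. It was lost, among others, without orbital array 2, the array at the floor (−4.80).

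MLF1, myeloid leukaemia factor 1, stood at 10888 and 13637 (orbital) against 36133 and 36307 (global) (−1.57 ± 0.22, adjusted p = 0.0377 in limma). Its call was kept in 11 of the 14 alternatives and lost, among others, without orbital array 1, where the difference was −1.41. NDRG3, a member of the N-myc downstream regulated family, stood at 1399 and 1323 against 4609 and 4359 (−1.72 ± 0.24, adjusted p = 0.0381). The 2 arrays of a layer were nearly equal in NDRG3, and its call was kept in 10 of the 14 alternatives. ASPH, aspartyl hydroxylase, whose gene also encodes junctin and junctate of the sarcoplasmic reticulum, fell on 1 of 5 kept probe sets, at 1706 and 1931 against 7059.8 and 6696. Its other 4 differed by −0.66 to 0.00, so that only 1 of the 5 was apart. CSMD1, a large complement-control protein of neural tissue, stood at 6439 and 8576 against 54665 and 43220.3 on U133B. Its call was kept in 8 of the 14 alternatives and lost, among others, without orbital array 1 and without orbital array 2.

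CSPG5, a neural chondroitin sulphate proteoglycan, fell from 5136 and 4614 on the global arrays to 893 and 731 on the orbital arrays. Of 25 measured nerve, Schwann cell and neural genes on U133A, 11 were lower on both orbital arrays, 5 higher and 9 overlapped. Their summed intensity was between 44930.2 and 48336 on the orbital arrays and between 48593 and 51202 on the global arrays, while the 7 measured on U133B, of which 2 were lower and 1 higher, summed to between 24649 and 34529.7 on the orbital arrays and between 63100.0 and 72084 on the global arrays. These sums include the called genes CSPG5 (U133A) and CSMD1 (U133B). CSMD1 alone, at 54665 and 43220.3, made up most of the U133B sums on the global arrays. The sums therefore do not describe the list as a whole. The part of nerve in these results was not tested. SPP1, osteopontin, stood at 392 and 86.6 against 2892 and 2119.7, with orbital array 2 below the floor. Its call was kept in 6 of 11 alternatives and lost, among others, with quantile normalization (adjusted p = 0.121 in limma).

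Other probe sets of a gene bear on how far a single one can be read. Of the 33 named genes past the threshold, 9 had further kept probe sets on the same array type. In all 9 every kept probe set had the same sign, which takes no account of size. The further one of FBLN1 differed by only 0.03 ± 0.34 and that of ASPH by −0.09 ± 0.33, with overlapping layers. Only in LRTM1, MYL10, MYL4 and RETREG1 was a further probe set on that type apart. On the other array type 5 of the 33 had a kept probe set, and 4 agreed in sign throughout; the exception was ASPH. Over all genes with 2 or more kept probe sets on U133A (1538), 56.0% had one sign throughout, and the differences of the brightest and the second brightest probe set correlated at 0.41. On U133B the values were 48.6% of 1326 genes and 0.17. Probe sets of a gene share the RNA and the array, so that these are descriptions.

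Agreement was more frequent at larger differences on U133A. Where the brightest probe set differed by under 0.25, the second had the same sign in 56.4% of genes. That share was 66.5% between 0.25 and 0.5, 73.6% between 0.5 and 1, and 94.4% (34 of 36 genes) at 1 or more. On U133B the shares were 50.1%, 59.2%, 59.5% and 64.9%. Among genes whose brightest probe set was apart in all pairings, all kept probe sets had one sign in 42 of 51 genes on U133A (82.4%) and in 45 of 69 on U133B (65.2%). In 13 genes of U133A the 2 brightest probe sets were both apart, and in all 13 they had the same direction. Of 7 such genes on U133B, 6 had the same direction.

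**Figure D4:**
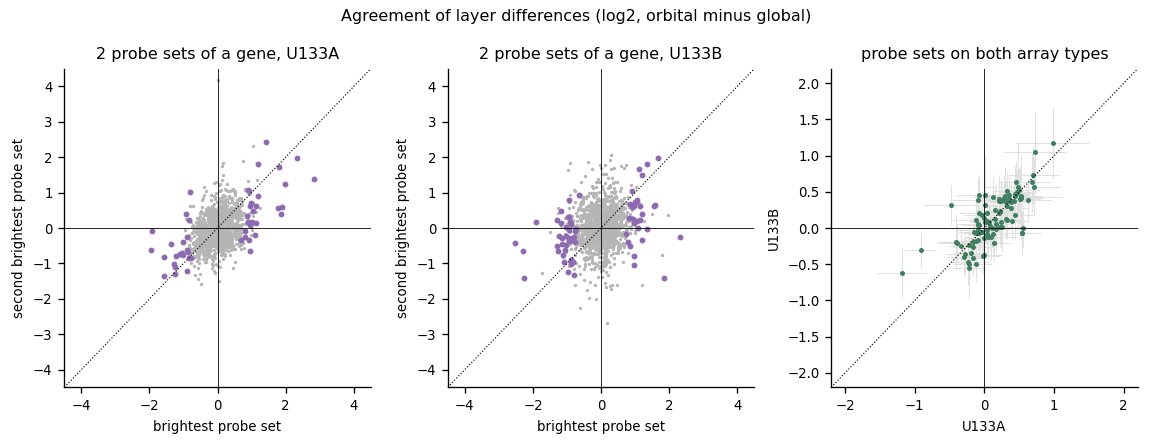
Log2 differences (orbital minus global) of the brightest (horizontal) and second brightest (vertical) kept probe set of a gene on U133A (left, 1538 genes) and U133B (middle, 1326 genes), with genes whose brightest probe set was apart in all pairings in purple; right, the 100 probe sets present on both array types, U133A (horizontal) against U133B (vertical), with standard errors. Points near the dotted line agree, as in the right panel, where 80 of 100 have the same sign.

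Several genes were apart in all pairings on at least 2 probe sets in one direction and on none in the other. Beside RETREG1, MYL10, LRTM1 and MYL4, those higher in the orbital layer on U133A were DDAH2, PAM, COL3A1, ACTB, MACF1, CPD and CD99. PAM, the enzyme that amidates secreted peptides, stood at 11660.1 and 19089 against 5842 and 5914 and 2375 and 3349 against 1564 and 1021 on the 2 apart probe sets. DDAH2, which breaks down methylated arginines, stood at 2365 and 3069.7 against 606 and 991 and 2328 and 2382 against 851 and 1262. CPD, a carboxypeptidase of the trans-Golgi, differed by 0.91 ± 0.24 and 1.07 ± 0.29, and CD99, a cell surface glycoprotein, by 0.92 ± 0.25 and 1.05 ± 0.26. MACF1, which links microtubules with actin, was apart on 2 of 5 kept probe sets of U133A, and its 5 differences ran from 0.35 to 1.28. None of these 7 genes passed in limma.

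COL3A1, the fibrillar collagen of loose connective tissue, was apart on 2 of 3 probe sets of U133A, at 70907 and 64753 against 29243 and 41035 and 18147 and 15289 against 5634 and 8749. The remaining one differed by 0.08 ± 0.29 with overlapping layers, and the one on U133B by −0.03 ± 0.29. ACTB, beta-actin, was apart on 2 probe sets of U133A (1.18 ± 0.22 and 0.90 ± 0.20) and 1 of U133B (1.38 ± 0.29). The control probe sets for ACTB differed along the transcript. Its 3′ control stood at 27330 and 23856 against 11226 and 15515 (orbital against global, U133A), while its 5′ control stood at 5159 and 4063 against 3955 and 5394, with overlapping layers. The 3′/5′ ratio of ACTB was therefore higher on both orbital arrays of each array type. It was 5.30 and 5.87 (orbital) against 2.84 and 2.88 (global) on U133A and 5.29 and 4.43 against 3.54 and 3.61 on U133B. The same ratio of GAPDH overlapped between the layers. The part of RNA length in the ACTB differences, or in the layer differences of any other gene, was not tested.

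Lower in the orbital layer on several probe sets of U133A were MAF, DIPK1A, OLFM1, SUCLG2 and RHOQ. MAF, a basic leucine zipper transcription factor, stood at 2996 and 4288 (orbital) against 9307 and 12431 (global) (−1.59 ± 0.29, adjusted p = 0.0968 in limma) and at 3598 and 4084 against 8931 and 10765 on the second. On U133B MAF differed by −1.05 ± 0.43, in the same direction. SUCLG2, the GTP-specific subunit of succinyl-CoA ligase in the TCA cycle, was apart on 3 of 3 probe sets, at −0.88, −0.69 and −0.88. RHOQ, a small GTPase of insulin-stimulated glucose transport, was apart on 4 of 5, with those 4 between −1.05 and −0.84. OLFM1, olfactomedin 1, differed by −1.25 ± 0.33 and −1.10 ± 0.25, and DIPK1A by −1.26 ± 0.37 and −1.31 ± 0.35. None of the 5 passed.

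On U133B the genes apart on several probe sets were RIMKLB, FRMD3 and RICTOR on the higher side. FRMD3, a FERM domain protein of the membrane skeleton, was apart on 3 of 3 probe sets, the brightest at 83621 and 90351 (orbital) against 27081 and 43171 (global), with differences of 1.35, 1.82 and 1.06. RIMKLB, a ligase that joins glutamate to citrate or N-acetylaspartate, was apart on 3 of 4, the brightest at 15743 and 18052 against 5391 and 5201. The one closest to the threshold differed by 1.97 ± 0.26 (adjusted p = 0.066 in limma). RICTOR, the defining subunit of mTOR complex 2, was apart on 3 of 3, at 0.91, 1.04 and 1.08.

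On the lower side of U133B were THRSP, GPCPD1, PHACTR2 and MRPL50. THRSP, a nuclear protein of fatty acid synthesis, stood at 352 and 1185 against 3086 and 3091 and 475 and 755 against 1646 and 1512. GPCPD1, which splits glycerophosphocholine, was apart on 2 of 3 probe sets (−0.79 and −1.89). PHACTR2, a phosphatase and actin regulator, differed by −0.97 and −1.24, and MRPL50, a mitochondrial ribosomal protein, by −1.09 and −0.97. Probe sets of 2 genes on U133B were apart in opposite directions. Those of PYROXD2, an oxidoreductase, differed by 1.86 ± 0.75 and −1.43 ± 0.57, and those of DNAJC27, a small GTPase with a J domain, by 1.08 ± 0.46 and −0.64 ± 0.26. No direction can be given for either gene.

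The 2 array types carry 100 probe sets in common, and these were compared first. Of the 100, 80 had the same sign of difference on both, the differences correlated at 0.75 and the median distance between them was 0.13. C1D, a nuclear exosome cofactor, differed by −1.19 ± 0.35 on U133A and −0.62 ± 0.34 on U133B. TMED2, a cargo receptor of the early secretory pathway, differed by 0.72 ± 0.44 and 1.04 ± 0.56. These 2 genes, named after their values were seen, differed in one direction on both types without passing on either. The layers did not overlap in C1D but overlapped in TMED2 on both types. TMED2 stood at 9057 and 13888 (orbital) against 4195 and 10987 (global) on U133A and at 29553 and 45654 against 9102 and 34851 on U133B.

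The difference between arrays 1 and 2 of a layer also carried over for these shared probe sets. It correlated between the array types at 0.48 for the orbital and at 0.81 for the global arrays, over 100 probe sets that share their arrays. Over all 1413 genes kept on both types, each read by its brightest probe set, the values were 0.096 and 0.12. The labels do not say whether same-numbered arrays of the types hold the same RNA, so agreement between the types is not counted as replication.

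For genes measured on both types through different probe sets, agreement was lower. Of 1350 such genes, 754 (55.9%) had the same sign, and the differences correlated at 0.27. Of 61 genes apart on U133A, 40 had the same sign on U133B, and of 74 apart on U133B, 55 had the same sign on U133A. The 9 genes whose brightest probe sets were apart on both types had the same direction in all 9.

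Counting any kept probe set, 11 genes were apart in the same direction on both types. Higher in the orbital layer were GRIA3, ACTB, FST, LZTFL1 and VPS54. FST, follistatin, which binds and inhibits activins and myostatin, stood at 3842 and 3917 (orbital) against 659 and 1665 (global) on U133A and at 7102 and 10902 against 1438 and 3642 on U133B, with differences of 1.89 ± 0.42 and 1.94 ± 0.46. VPS54, a subunit of the complex for retrograde transport to the Golgi, differed by 1.10 ± 0.28 and 1.57 ± 0.33. LZTFL1, which regulates traffic into cilia, differed by 1.18 ± 0.29 on U133A and by 1.14 ± 0.36 on the apart probe set of U133B; its brighter one there differed by 0.21 ± 0.39.

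Lower on both types were SLC1A2, ATP2B2, FABP4, EMC3, PHKA1 and SAR1B. FABP4, the fatty acid binding protein of adipocytes and capillaries, stood at 899.6 and 2028 (orbital) against 3134 and 6469 (global) on U133A and at 568 and 1688 against 2681 and 4705 on U133B. The adipocyte markers ADIPOQ, LEP and PLIN1 were below the floor on all 4 arrays of U133A, whereas CIDEC, CFD and ADIRF were kept there. CIDEC stood at 1375 and 719 against 1270 and 996 and CFD at 1018 and 1066 against 1037 and 1367, with overlapping layers. ADIRF was higher on both orbital arrays, at 1918 and 2255 against 1061 and 1847. Of 13 measured adipocyte genes 2 were lower on both orbital arrays and 1 higher, and 10 overlapped. Their summed intensity was between 6965 and 8129 on the orbital arrays and between 9189 and 13277 on the global arrays, and the 2 measured on U133B, FABP4 among them, summed to between 1040.2 and 1869 on the orbital arrays and between 3009 and 5112 on the global arrays. FABP4 is part of the U133A sums too. It was the brightest adipocyte gene on both global arrays of each type, so that the sums do not describe the list as a whole. PHKA1, the muscle subunit of phosphorylase kinase, stood at 6770.0 and 6057 against 11428 and 12909 and at 16913 and 16133 against 30533 and 43203. EMC3, of the membrane protein insertion complex of the endoplasmic reticulum, differed by −1.30 ± 0.26 and −1.22 ± 0.28. SAR1B, the GTPase of COPII vesicles, differed by −0.81 ± 0.24 and −0.88 ± 0.27. For FABP4, EMC3, PHKA1 and SAR1B the 2 types differed by less than 1 standard error, whereas SLC1A2 and ATP2B2 had larger differences on U133B, where orbital values lie below the floor.

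Gene groups were described through lists of genes, with the brightest kept probe set for each gene. Each list is read against all genes kept, whose median difference was −0.05 on U133A (2867 higher, 3497 lower) and 0.02 on U133B (2881 higher, 2674 lower). Of genes listed as slow fibre isoforms on U133A, contractile or not, 15 of 15 were higher in the orbital layer. Of these, 4 were apart in all pairings, and the median was 0.77 (0.43 without global array 1). MYH6, CSRP3 and SLN rose, and CASQ2, cardiac calsequestrin, stood at 49974 and 35825 against 12157 and 20613 (1.42 ± 0.30) without passing. The list was partly made up of genes that earlier results had shown. On U133B its only kept member was MYH7B, a slow tonic myosin heavy chain, at 15335 and 12376 against 1629 and 2893, a difference of 2.67 ± 0.34 (adjusted p = 0.0617 in limma).

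Fast fibre isoforms were lower in 13 of 15 kept members on U133A, with a median of −0.31 and 4 apart. ACTN3 fell; MYH1, a fast myosin heavy chain, MYOZ1, a fast fibre Z-disc protein that binds calcineurin, and PVALB, the calcium buffer parvalbumin, were apart without passing. MYOZ1 stood at 26795 and 21985 against 48744 and 49914 and PVALB at 11244 and 12774 against 20469.9 and 49518. MYH2, the myosin heavy chain of type IIA fibres, lay the other way, at 129993 and 127937 against 60876 and 90381 (0.80 ± 0.22), without overlap but not apart. The only fast isoform kept on U133B, TPM1, also differed in that direction, by 0.80 ± 0.70. Of 13 kept thin filament genes on U133A, 4 were higher and 9 lower (median −0.16), with none apart. TNNC1, the slow and cardiac troponin C, differed by 1.35 ± 0.43 and TNNT1, the slow troponin T, by 1.03 ± 0.48, whereas TNNC2, the fast troponin C, differed by −0.31 ± 0.18.

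In the M-band, MYOM3, a myomesin, stood at 3828 and 5807 (orbital) against 12987 and 21417 (global) on U133B (−1.82 ± 0.34). It was apart and lower in the orbital layer. DES, the muscle intermediate filament desmin, stood at 8532 and 7743 against 2290.2 and 4835 on U133A (1.29 ± 0.36), apart and higher, and ANK1, ankyrin 1, whose small form tethers the sarcoplasmic reticulum, differed by −1.02 ± 0.24, apart and lower. Of calcium handling genes on U133B, 6 of 8 were lower (median −0.63, but −0.05 without global array 2). On U133A 9 of 15 were lower (median −0.13). JPH1, junctophilin of the skeletal triad, stood at 28031 and 36314 against 64269 and 56414 (−0.92 ± 0.25).

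**Figure D5:**
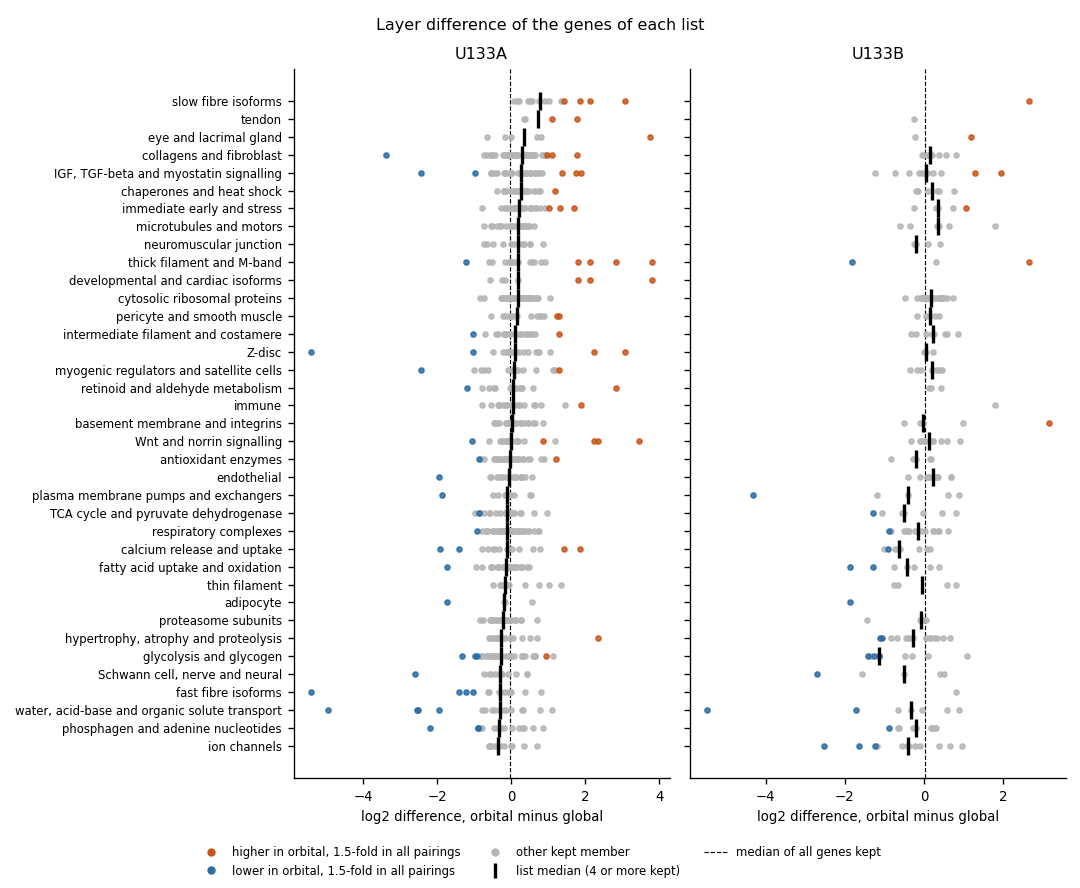
Log2 difference (orbital minus global, horizontal axis) of the kept members of each gene list on U133A (left) and U133B (right), ordered by the U133A median; short bars are list medians where 4 or more members were kept and the dashed line is the median of all genes kept. Slow fibre isoforms lie highest (median 0.77) and ion channels lowest (−0.35) on U133A; orange and blue points mark genes apart in every pairing.

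Of 9 glycolysis and glycogen genes kept on U133B, 7 were lower in the orbital layer (median −1.14) and 4 were apart. These were ALDOA, muscle aldolase, at 5463 and 7101 against 11308 and 16615, PHKA1, PHKB, the beta subunit of phosphorylase kinase (−1.43 ± 0.42), and GPD2, the mitochondrial glycerol phosphate dehydrogenase (−1.27 ± 0.37). On U133A 21 of 32 were lower (median −0.29, and −0.13 without global array 2), 3 apart and lower and 1, PFKP, the platelet phosphofructokinase, apart and higher at 6502 and 5551 against 2925 and 3323. No glycolytic gene passed in limma on either type.

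Among genes of the phosphagen and adenine nucleotide system on U133A, 12 of 18 were lower (median −0.34), 3 of them apart. AMPD1, the AMP deaminase of fast muscle, stood at 3219 and 4171 (orbital) against 11636 and 24398 (global) (−2.20 ± 0.36, adjusted p = 0.0663 in limma). AK1, adenylate kinase, stood at 17915 and 17377 against 27492 and 38610.4 and ADK, adenosine kinase, at 1076 and 920.4 against 1711 and 1991. In all 3 both orbital arrays were below both global arrays. Of 62 respiratory complex genes kept on U133A, 42 were lower (median −0.13, and −0.24 without global array 1 or −0.05 without global array 2) and 1 was apart, NDUFB5, a subunit of complex I (−0.92 ± 0.21). On U133B, NDUFV3, of complex I, differed by −0.87 ± 0.24 and SDHC, of complex II, by −1.29 ± 0.29, although a second SDHC probe set there differed by 0.22 ± 0.38. CD36, the fatty acid transporter, stood at 16889.8 and 16700.4 against 46724 and 36296 on U133B (−1.29 ± 0.25). No member of these lists passed.

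Ion channels were mostly lower in the orbital layer on both types, 9 of 12 on U133A (median −0.35) and 9 of 12 on U133B (median −0.40, and −0.25 with quantile normalization). On U133B 3 potassium channel genes were apart. KCNQ5, an M-type channel, stood at 713 and 1027 against 2929 and 2451, KCNN3, a small-conductance calcium-activated channel, at 345 and 1130.1 against 2798 and 4616, and KCNA7, a Shaker-type channel, at 1470.2 and 1269 against 2683 and 3872. Their differences were −1.65, −2.53 and −1.24. On U133A none was apart; SCN4A, the sodium channel of skeletal muscle, differed by −0.60 ± 0.29. Of water, acid-base and solute transport genes on U133A, 13 of 17 were lower (median −0.31, and −0.20 with quantile normalization), and CA3, CA2 and AQP1 fell. AQP4, the water channel of fast fibres and astrocytes, stood at 654 and 427 against 1147 and 2600.1 on U133B (−1.71 ± 0.58).

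Growth factor signalling showed genes on both sides. Of 32 IGF, TGF-beta and myostatin pathway genes kept on U133A, 20 were higher (median 0.27). Among ligands, MSTN, myostatin, which limits muscle growth, stood at 348 and 243 (orbital) against 1086 and 2242 (global) (−2.42 ± 0.46, adjusted p = 0.103 in limma), apart and lower. INHBA, the activin A subunit, stood at 3576 and 3056 against 1233 and 1491 on U133B (1.29 ± 0.32), apart and higher. The inhibitor FST was apart and higher, as given above. Of the intracellular members, SMAD4, the common SMAD, differed by −0.99 ± 0.32 and ID3, a target of BMP signals that inhibits helix-loop-helix factors, by 1.37 ± 0.25, at 3398 and 3225 against 1204 and 1369.9. IGFBP3 rose and no other member passed.

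In the Wnt and norrin list, the ligand NDP, norrin, rose, at 2557 and 2081 against 438 and 480.2, and the receptor FZD5, frizzled 5, rose, at 3871 and 3398 (orbital) against 566 and 197 (global). FZD10, another frizzled receptor, stood at 3008 and 2819.9 against 1453 and 1760.2 (0.86 ± 0.26), and LEF1, a transcription factor of the pathway, at 1319.8 and 1628 against 653 and 71.1 (2.25 ± 0.65), both apart without passing. The second global value of LEF1 is below the floor. DVL1, dishevelled, which acts between receptor and beta-catenin, was apart and lower (−1.06 ± 0.25). Over 24 kept members the median was −0.02, near that of all genes, and its sign was not stable: it was 0.02 under quantile normalization and ran from −0.11 to 0.15 with each array left out. ALDH1A1, which makes retinoic acid from retinaldehyde, rose, at 27716 and 28091 against 2653 and 5821, while DHRS9, a retinol dehydrogenase, was apart and lower (−1.18 ± 0.38).

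Translation and protein turnover differed by small amounts. Of cytosolic ribosomal protein genes, 37 of 51 lay higher in the orbital layer on U133A (median 0.17) and 19 of 25 on U133B (median 0.18), and none was apart. Summed intensity over the list was 2307860.0 and 2288420.0 (orbital) against 1966350.0 and 2293270.0 (global) on U133A. The U133B sums were 2306080.0 and 2253220.0 against 1836940.0 and 2466060.0. Global array 1 was the low array on both types, and without it the medians were 0.02 on U133A and −0.08 on U133B; without global array 2 they were 0.31 and 0.56. Proteasome subunits were lower in 23 of 30 on U133A (median −0.23, and −0.43 without global array 1), none apart, with PSMC6, a base ATPase, at −0.83 ± 0.28 and PSMD12, a lid subunit, at −0.77 ± 0.26. On U133B TRIM63, the muscle ubiquitin ligase MuRF1, stood at 9991 and 14307 against 23652 and 25849 and FBXO40, a muscle F-box protein, at 3442 and 3931 against 7175 and 8863, both apart and lower. Of chaperones on U133A, 17 of 23 were higher (median 0.26, but 0.03 without global array 1 and 0.50 without global array 2), with DNAJB6, a Z-disc co-chaperone, at 1397 and 1380.4 against 562 and 657.

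Of 46 kept collagen and fibroblast genes on U133A, 32 were higher (median 0.30), 3 apart and higher (COL3A1, FMOD and THBS4), and SPP1 fell. The median depended on single arrays: it was 0.05 without orbital array 1 and 0.15 without global array 2. THBS4, thrombospondin 4 of tendon and muscle matrix, stood at 8965 and 9681 (orbital) against 3998 and 1873 (global) (1.77 ± 0.36), and FMOD, fibromodulin, which binds collagen fibrils, at 3616 and 2326 against 1450.3 and 1279.7 (1.09 ± 0.30). Summed over the 54 measured genes of the list, intensity was between 464092 and 523121 on the orbital arrays and between 384626 and 418597 on the global arrays, without overlap, and on U133B it was between 112815 and 125244 on the orbital arrays and between 84439.7 and 90105 on the global arrays, again without overlap, over 15 genes. Of 10 measured tendon genes, a list that shares THBS4 and FMOD with it, 5 were higher on both orbital arrays and 1 lower, and 4 overlapped. Their summed intensity was between 20269 and 22028 on the orbital arrays and between 8399 and 12828 on the global arrays; the 3 measured on U133B summed to between 10244 and 13288 on the orbital arrays and between 8124 and 21791 on the global arrays, which overlaps. TNMD, tenomodulin, a defining tendon gene, stood at 731 and 257 against 57.2 and 58.4 and was below the filter, and COMP and CHAD, of cartilage and tendon, were below the floor on all arrays. The part of connective tissue and tendon in these results was not tested. PERP, a desmosome protein of epithelia, stood at 3076 and 3217 against 577 and 84.6 on U133B (3.15 ± 0.56), apart and higher; the second global value is below the floor, and with the floor at the 40th percentile the difference was 2.49 and at the 5th 3.83.

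Of 30 measured endothelial genes on U133A, 5 were higher on both orbital arrays, 3 lower and 22 overlapped. Their summed intensity was between 66456 and 70777 on the orbital arrays and between 68962 and 84116 on the global arrays, and AQP1 was the only kept member apart there. On U133B 8 of 10 kept members were higher (median 0.22), and the 13 measured summed to between 45664 and 45782 on the orbital arrays and between 39402 and 40013 on the global arrays, without overlap. Pericyte and smooth muscle genes were higher on both orbital arrays in 8 of 19 on U133A and lower in 2, and their summed intensity was between 72171 and 74412 on the orbital arrays and between 60887 and 61382 on the global arrays. The 10 measured on U133B summed to between 36754 and 41505 on the orbital arrays and between 32956 and 42425 on the global arrays, which overlaps. Among the 8 higher on U133A was DES, the muscle intermediate filament given above, and its values are part of the U133A sums. MYLK, the smooth muscle myosin light chain kinase, stood at 4659.9 and 5461 against 2021 and 2239 on U133A. On U133B its layers lay close together, at 10477 and 10187 against 10175 and 8569.

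Of 31 kept immediate early and stress genes on U133A, 25 lay higher on the orbital side (median 0.22, and 0.39 without global array 1), 3 of them apart. SGK1, a kinase induced by glucocorticoids and osmotic stress, stood at 5936 and 12554 (orbital) against 2334 and 3040.3 (global) (1.70 ± 0.37). KLF6, a zinc finger factor, stood at 1116 and 1232 against 339 and 645 and CCN1, a matrix protein of the immediate early class, at 2875 and 4239 against 1662 and 1798. FOSL2, of the AP-1 complex, stood at 5023 and 4079.6 against 2121 and 2211 on U133B. None passed in limma.

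The brightest genes of the layers differed by small amounts on their brightest probe sets. The 10 genes with the brightest probe sets on U133A were MYL1, HUWE1, TPT1, ACTC1, RPL37A, TTN, EEF1A1, RPL23A, ATP5F1A and TNNC2, and on their brightest probe sets their differences lay between −0.31 and 0.19. HUWE1 ranked here by a single probe set, at 164446 and 148785 (orbital) against 184613 and 175300 (global). Its other kept probe set on U133A stood at only 5122 and 4799 against 4356 and 4591, and the one on U133B at 1834 and 2326 against 1426 and 1188. The rank of HUWE1 is thus that of a probe set and not of the gene. MYL1, the fast myosin light chain, stood at 169681 and 147368 (orbital) against 183475 and 169330.0 (global), and TTN, titin, at 140310.0 and 128837 against 144793 and 134769. The layers overlapped in both, as in RPL37A and ATP5F1A. On the brightest probe sets of ACTC1, HUWE1, TPT1, EEF1A1, RPL23A and TNNC2 they did not overlap. Further kept probe sets differed by up to −0.61 ± 0.20 in TPT1 and up to 0.57 ± 0.18 in EEF1A1, without passing in limma. On U133B, 1 of 4 kept TTN probe sets was apart and lower in the orbital layer (−1.61 ± 0.31), while the other 3 differed by 0.07 to 0.34.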

How the data were processed

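Layer and whole rectus RNA of macaque extraocular muscle had been hybridised to human U133A and U133B arrays. The authors deposited linear intensities, with 1 value for each probe set on each array; the summary software was not given in the sources used here. Members, gene lists and tests were chosen with earlier results of these data known. Arrays were grouped by title.

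Arrays were brought to one 2% trimmed mean over the 8 arrays of a type, intensities under the pooled 20th percentile (146.487 on U133A, 218.465 on U133B) were set to that percentile, and the log2 scale was used. Probe sets whose mean log2 value over the 4 layer arrays reached the pooled median (653.942 and 802.702) were kept, 9532 of 22283 on U133A and 9510 of 22645 on U133B; 68 control probe sets per type were left out. Orbital and global arrays were compared with limma 3.58.1 under R 4.3.3 (empirical Bayes variances that follow an intensity trend, Benjamini-Hochberg over kept probe sets, two-sided, adjusted p under 0.05), and the script was tested on simulated data. An exact permutation test of 2 against 2 cannot go below p = 0.333 and was not used. Summaries were made in Python 3.11.15 (pandas 2.3.3) and figures with matplotlib 3.10.9.

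Symbols came from the platform annotation: 19071 probe sets of U133A carried 1 symbol, 1043 several and 2169 none, and 15432, 554 and 6659 of U133B. Only those with 1 symbol are named. Named were the 5 markers, all genes past the threshold, genes apart on several probe sets (up to 15 per direction) or on both types (up to 10), genes with opposite probe sets, the 10 brightest genes and from each list the 4 members of smallest p at most. Alternatives were quantile normalization, floors at the 5th and 40th percentile, a filter at the 75th percentile or none, no variance trend, weights per array, a fit of all 4 groups, a replicate block, 2-fold in all pairings, each array left out, and a filter on the arithmetic mean, which was chosen after seeing the data. No column of per-sample values was left unused.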

Additional observations from a re-analysis of the deposited data

How the results depend on the processing

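The 39 probe sets past the limma threshold on U133A became 21 with quantile normalization, 12 without a variance trend and 0 with no filter (1607 at an unadjusted p under 0.05), and 68 to 144 with each array left out, where the lone array is assumed to vary like the others. The 2 of U133B became 0 with quantile normalization, with the floor at the 5th percentile, with no filter or without a trend (763, 733, 1626 and 674 at an unadjusted p under 0.05), 19 with the floor at the 40th percentile, 23 when filtered at the 75th percentile, 10 with all 4 groups in one fit and 0 to 28 with each array left out (567 unadjusted without orbital array 2, which gave 0). Titles number the arrays of both layers, but the labels do not say that a number marks a shared animal. With a replicate block 92 passed on U133A, among them 39 of the 39, and 26 on U133B; deviations of same-numbered arrays correlated at 0.26 and 0.13, with only 2 pairs, and no pairing is established. The cause of these changes was not tested, apart from the number of probe sets tested and arrays used. No called probe set and no named apart probe set changed sign in any of these fits.

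Probe sets apart in all pairings, 367 on U133A and 506 on U133B, were 97 and 116 at 2-fold, 1023 and 1509 with no filter, 210 and 219 with the filter at the 75th percentile, and 913 to 1690 and 1438 to 1728 with each array left out, which leaves 2 pairings. The share of genes with one sign over their probe sets was 42.9% on U133A and 34.8% on U133B with no filter, where differences of 0 at the floor count as no sign, and 53.6% on U133B with the filter at the 75th percentile. Among genes apart it was 91.7% and 82.6% with that filter and 51.5% and 38.9% with none. Across array types it was 60.6% with that filter and 49.4% with none. List medians kept their sign in all 7 alternatives in 27 of 35 lists on U133A and 13 of 25 on U133B. In the dimmest of 5 brightness classes of U133B, 7.83% were apart and none passed.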
